A study of Mus musculus with 5 samples.

Results

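Of the 1701 wells that held at least 1000 transcript molecules in 5 plates of single mouse intestinal organoid cells, 149 drew more than 2% of those molecules from a single noncoding RNA, Kcnq1ot1. These 149 Kcnq1ot1-rich wells are described here against the 1552 other wells of the same plates. Molecules were counted as unique molecular identifiers (UMIs), the random tags that let copies of 1 captured RNA be counted once, after the synthetic spike-in RNAs were set aside. The wells were chosen by their measured share of Kcnq1ot1, so that share and the total it is divided by are given as a description only. The share had been picked with a working name that called the wells damaged, and no measure of viability or of membrane integrity was used here, so the wells are called by their leading RNA.

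The 5 plates, 1 library each, came from fetal intestinal organoids of WT genotype (fetal), and from small intestinal organoids that were WT, Lkb1 +/- (het) or Lkb1 -/-, the last in 2 libraries marked Bud and Cys in their titles without further explanation. Lkb1, whose gene symbol is Stk11, encodes a kinase that switches on AMPK and its relatives. Organoids are clusters of epithelium grown in a gel, here fed with EGF, R-spondin and Noggin, and they were dissociated with TrypLE and sorted as single cells into 384-well plates for SORT-seq, a plate form of CEL-Seq2 in which RNA is primed at its poly(A) tail. All 5 libraries used the same 384 well barcodes, and of the well numbers that held a Kcnq1ot1-rich well, 118 did so in 1 library, 14 in 2 libraries and 1 in 3. Each of the 5 organoid groups was 1 library, so no difference between groups or genotypes was tested. The labels say nothing of how many animals, clones or organoid lines stand behind a plate. The targeted gene Stk11 gave too few molecules to check the genotypes in Kcnq1ot1-rich wells, with 0 UMIs in fetal, 2 in WT, 2 in het, 1 in Bud and 0 in Cys. In the other wells it had 94, 81, 60, 48 and 45 UMIs, so Stk11 RNA was still counted in both Lkb1 -/- libraries.

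Kcnq1ot1 is a long RNA of the paternal chromosome, transcribed antisense to the potassium channel gene Kcnq1, that stays in the nucleus, spreads over its neighbourhood and keeps imprinted genes such as Cdkn1c and Ascl2 silent in cis. Nuclear RNA of this kind is not translated, whereas most mRNA of a cell sits in the cytoplasm with ribosomes. In single-cell data a well rich in nuclear RNA and poor in mRNA is commonly read as a leaky cell or a bare nucleus, and that reading was not tested here. The GENCODE M21 annotation places Kcnq1ot1 on the minus strand of chr7:143203458-143296549 in build GRCm38, the build named in the submitters' processing notes. The transcript is 93092 bases long and unspliced in that annotation, and it holds 8 runs of 12 or more adenines at which a poly(A) primer could also sit. The longest has 41 adenines and is shown in capitals with 20 bases on each side, because it is the longest stretch that an oligo(dT) primer could pair with; it lies at chr7:143226925-143227005, minus strand.
Kcnq1ot1: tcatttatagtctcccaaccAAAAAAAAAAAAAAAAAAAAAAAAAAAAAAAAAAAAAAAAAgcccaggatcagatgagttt

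Kcnq1ot1-rich wells made up 60 of 351 kept wells in het (17.1%, exact 95% binomial interval 13.3 to 21.4) and 43 of 318 in Bud (13.5%, 9.96 to 17.8). They were 22 of 302 in WT (7.28%, 4.62 to 10.8), 22 of 359 in Cys (6.13%, 3.88 to 9.13) and 2 of 371 in fetal (0.539%, 0.0654 to 1.93). The intervals cover counting error only. The 2 fetal wells form the smallest group, with 10744 UMIs in all, against 53631 to 215298 UMIs in the Kcnq1ot1-rich wells of the other libraries and 3962280 to 5854763 in the other wells of each library. In the 4 small intestinal libraries the Kcnq1ot1-rich wells carried 1.08% to 5.13% of all UMIs of the kept wells and 48.8% to 74.4% of all Kcnq1ot1 UMIs.

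Kcnq1ot1 took 2.77% of the summed UMIs of Kcnq1ot1-rich wells in fetal, 7.06% in WT, 10.2% in het, 7.16% in Bud and 7.74% in Cys, against 0.0946%, 0.118%, 0.145%, 0.163% and 0.0884% in the other wells of the same libraries. The rise was in number as well as in share. The median well held 149 Kcnq1ot1 UMIs in fetal, 169 in WT, 200 in het, 212 in Bud and 199 in Cys among Kcnq1ot1-rich wells, against 12, 14, 16, 17 and 8 among the other wells. The threshold did not fall in a gap. The 5 wells just inside it had 2.04% to 2.10% of UMIs from Kcnq1ot1, the 5 just outside had 1.93% to 1.99%, and 18 kept wells lay between 2% and 2.5% against 18 between 1.5% and 2%. Of the 149 wells, 54 were over 10%, and the highest single well reached 24.9% in Bud.

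**Figure D1:**
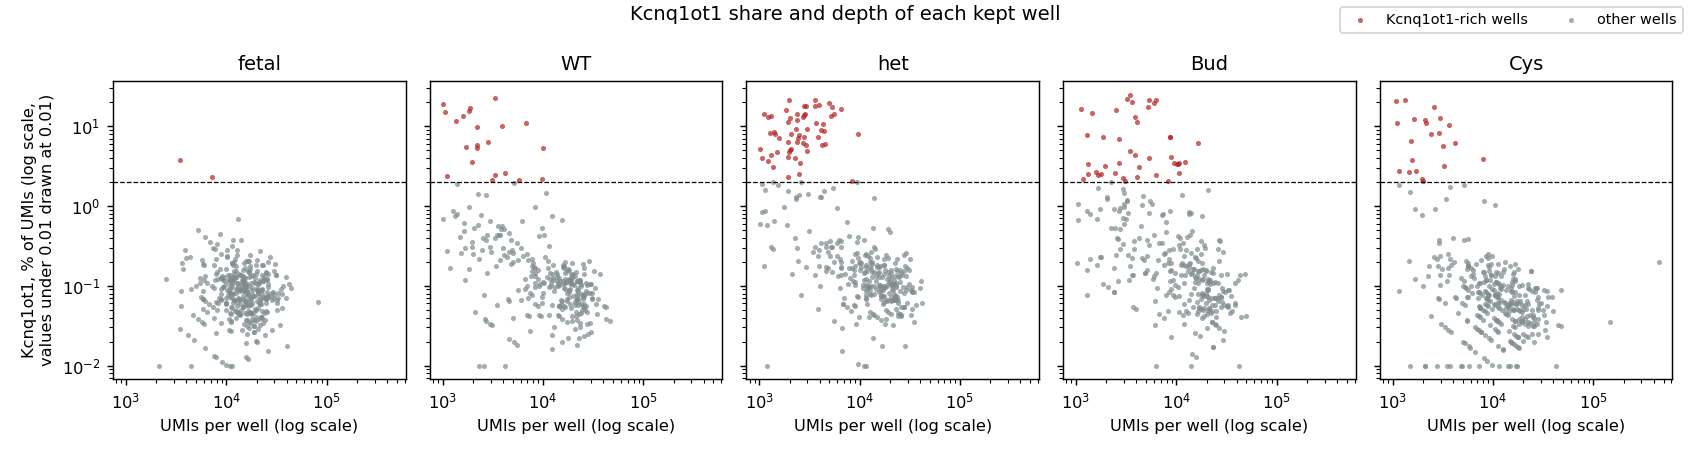
Each point is 1 kept well of 1 library, with its UMIs on a log axis from left to right and the percent of UMIs from Kcnq1ot1 on a log axis upward; the dashed line marks 2%, red points are the 149 Kcnq1ot1-rich wells and grey points the other wells. Red points lie to the left in each panel, grey points run up to the line without a gap in the 4 small intestinal libraries, and fetal has 2 red points.

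Kcnq1ot1-rich wells held fewer molecules. Their median was 5372 UMIs in fetal, 2209.5 in WT, 2435.5 in het, 3853 in Bud and 2067 in Cys, against 14649, 13708.5, 13347, 13508 and 10889 UMIs in the other wells. The log2 ratio of medians averaged -2.15 ± 0.50 (SD over 5 libraries), and since the total is part of the rule it is given without a test. The spike-in RNAs, equal amounts of which are meant to enter each well, did not follow the same pattern. Kcnq1ot1-rich wells had a median of 204 spike-in UMIs in fetal, 546 in WT, 729 in het, 562 in Bud and 322.5 in Cys, against 411, 606.5, 597, 566 and 356 in the other wells. The ratio averaged -0.21 ± 0.48 on the log2 scale, lower in 4 of 5 libraries, with p = 0.4375 by an exact two-sided sign-flip permutation test. Cell-derived UMIs per spike-in UMI were lower in 4 of 5 libraries, with medians of 4.54 in WT, 3.38 in het, 9.29 in Bud and 6.74 in Cys, against 23.9, 24.8, 25.2 and 32.8 in the other wells. In fetal the order was the opposite, 52.3 in the 2 Kcnq1ot1-rich wells and 36.5 in the others.

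A few RNAs filled much of each Kcnq1ot1-rich well. The 10 most abundant genes of a well, Kcnq1ot1 included, took a median of 12.8% of its UMIs in fetal, 47.0% in WT, 57.3% in het, 26.4% in Bud and 59.5% in Cys among Kcnq1ot1-rich wells, against 7.08%, 8.13%, 7.95%, 8.19% and 12.2% in the other wells. With Kcnq1ot1 left out, the 10 most abundant took 10.6%, 42.4%, 53.2%, 21.6% and 54.2% in the Kcnq1ot1-rich wells of fetal, WT, het, Bud and Cys, against 7.09%, 8.14%, 7.96%, 8.16% and 12.3% in the others. The number of genes seen at equal depth was lower. After each well was thinned at random to 1000 UMIs, Kcnq1ot1-rich wells showed a median of 678.5 genes in fetal, 456 in WT, 378 in het, 580 in Bud and 360.5 in Cys, against 737, 701, 691, 690 and 685 genes in the other wells, a mean difference of -210.2 ± 120 genes (SD over 5 libraries) that contains the share used to choose the wells and is given without a test.

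The difference in gene number shrank as the leading RNAs were removed. With Kcnq1ot1 taken out and every well thinned to 700 UMIs, the medians were 518, 372, 314.5, 436 and 294 genes in the Kcnq1ot1-rich wells of fetal, WT, het, Bud and Cys, against 549, 525.5, 519, 517 and 512 genes in the others. The difference averaged -138 ± 80.2 genes (SD, n = 5 libraries) and was lower in 5 of 5, with p = 0.063 by the exact two-sided sign-flip test, the smallest p that 5 libraries allow, so a threshold of 0.05 could not be reached. With Rn45s and the 82 accompanying genes described below taken out as well, and wells thinned to 300 UMIs, the medians were 270.5, 266, 261, 255 and 261 genes in Kcnq1ot1-rich wells, against 267, 260, 258, 257 and 264 in the others. The difference was then 1.5 ± 3.84 genes, from -3 to 6, higher in 3 libraries and lower in 2. In 1 WT well too few UMIs were left to enter. These removals were chosen after the data were seen. Reads per UMI, with Kcnq1ot1 left out, were lower in 5 of 5 libraries, by a mean of -0.22 ± 0.04 on the log2 scale (exact sign-flip p = 0.063). This measure also differed with depth. In wells with at most 0.25% Kcnq1ot1 its median was 2.11 under 1000 UMIs and 2.86 in kept wells. Kcnq1ot1-rich wells held fewer UMIs, and reads per UMI were not compared at matched depth.

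Kcnq1ot1-rich and other wells were also described within a limited range of depth. Among kept wells with fewer than 4000 UMIs, a limit set after the values were seen, 109 were Kcnq1ot1-rich and 189 were not. Kcnq1ot1-rich wells in that range had a median of 405 genes after thinning to 1000 UMIs with all RNAs counted, and the others had 669. The 10 most abundant genes took 54.1% of UMIs in the Kcnq1ot1-rich wells and 11.9% in the others, and Kcnq1ot1 itself took 7.38% and 0.281%. These measures count Kcnq1ot1, whose share chose the wells, so they are a description. For this range they are not given with the leading RNAs removed, and depth within it was not matched. By library the gene medians were 689 in the 1 fetal well, 440 in WT, 367 in het, 523 in Bud and 360.5 in Cys, against 705, 679.5, 606, 659 and 675.5 in the others, so fetal was nearly equal. UMIs per spike-in UMI had no single order, with medians of 84.9 in the fetal well, 4.02 in WT, 3.09 in het, 7.28 in Bud and 6.72 in Cys, against 11.5, 4.83, 4.13, 5.09 and 10.7 in the others, higher in fetal and Bud and lower in WT, het and Cys.

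A small set of RNAs led the Kcnq1ot1-rich wells of every library. Besides Kcnq1ot1, 5 genes stood among the top 10 of the summed Kcnq1ot1-rich wells in each: Gm17821, A630089N07Rik, Vmn2r55, Grk4 and the ribosomal RNA entry Rn45s. Rn45s ranked above Kcnq1ot1 in WT, het and Cys and below it in fetal and Bud, and it was abundant in the other wells too. Gm17821, annotated as a processed pseudogene on chromosome 12, had 20104 counts per 1000000 UMIs (CPM) of the summed wells in fetal, 52400 in WT, 69726 in het, 49908 in Bud and 55061 in Cys among Kcnq1ot1-rich wells, against 538, 804, 964, 1054 and 640 CPM in the other wells. A630089N07Rik, a protein-coding gene model on chromosome 16, had 24200, 43776, 54298, 40822 and 41021 CPM in the Kcnq1ot1-rich wells of fetal, WT, het, Bud and Cys, against 467, 718, 768, 835 and 526 CPM in the others. For both genes the lowest Kcnq1ot1-rich sum lay far above the highest other sum. With an edgeR quasi-likelihood test that kept the library as a block and left Kcnq1ot1 out of the table, Gm17821 was 6.21 ± 0.37 higher on the log2 scale (SE, adjusted p = 9.71e-59) and A630089N07Rik 6.23 ± 0.37 higher (adjusted p = 7.48e-61).

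Vmn2r55, Grk4 and Mid1 had been named with the wells as their markers and are therefore given without a test. Vmn2r55, a receptor gene of the vomeronasal organ by annotation, had 12193 CPM in fetal, 32562 in WT, 34633 in het, 23953 in Bud and 28733 in Cys among Kcnq1ot1-rich wells, against 212, 337, 388, 425 and 292 CPM in the others. Of 8 other listed sensory genes, Vmn2r29, Vmn2r53 and the olfactory marker Omp were in the tables and none had enough UMIs to be tested. Together they made up 0% of UMIs in fetal, 0.00137% in WT, 0.00173% in het, 0.00279% in Bud and 0.00186% in Cys in Kcnq1ot1-rich wells, against 0.000461%, 5.05e-05%, 0.000284%, 0.000126% and 0.000974% in the others, higher in 4 of 5 libraries on few molecules. The vomeronasal receptor genes Vmn1r58 (6.16 ± 0.41 on the log2 scale, SE, edgeR) and Vmn1r65 (5.05 ± 0.41), named after their values were seen, were also higher. Vmn1r58 had 2.22 to 6.28 CPM in the other sums. A gene could enter the test on its Kcnq1ot1-rich level alone, so neither is given a p-value. Grk4, a kinase that desensitises G-protein-coupled receptors, had 7911, 17631, 22535, 17715 and 17229 CPM in the Kcnq1ot1-rich wells of fetal, WT, het, Bud and Cys, against 175, 279, 340, 351 and 201 CPM. Mid1, an X-linked ubiquitin ligase that binds microtubules, had 93.1, 987, 1501, 1403 and 988 CPM against 8.37, 15.6, 19.9, 22.6 and 9.13 CPM, where the fetal value rests on 1 UMI.

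**Figure D2:**
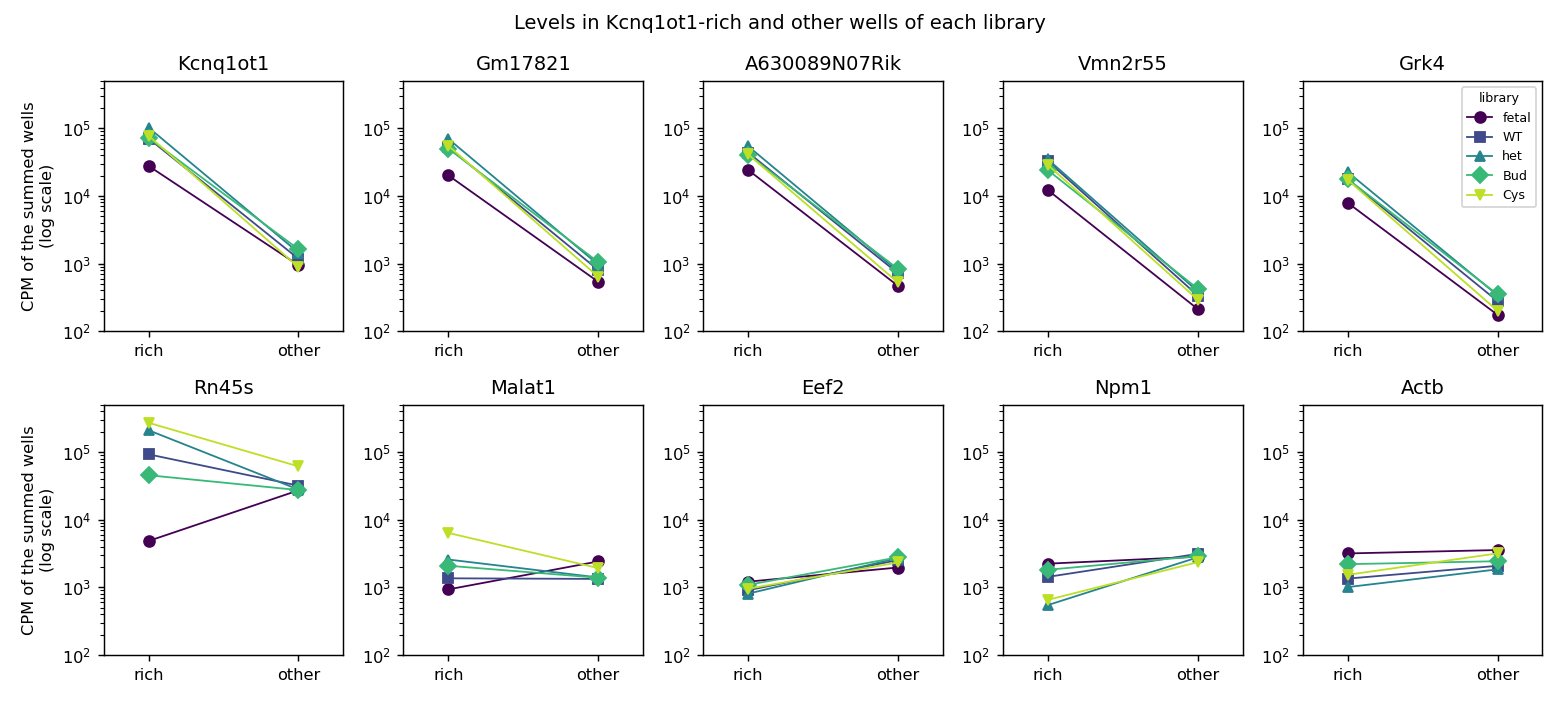
Each panel is 1 gene, with its CPM in the summed wells on a log axis, Kcnq1ot1-rich wells on the left and other wells on the right, and 1 line for each of the 5 libraries. The lines of Kcnq1ot1, Gm17821, A630089N07Rik, Vmn2r55 and Grk4 fall steeply to the right without overlap, those of Rn45s fall in the 4 small intestinal libraries and climb in fetal, and those of Eef2, Npm1 and Actb climb to the right by far less.

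Across all 9774 genes tested, 285 were higher in Kcnq1ot1-rich wells (2.92% of those tested) and 92 were lower (0.941%) at an adjusted p under 0.05, with a median log2 fold change of -0.29. Of the 285, 84 were higher in 5 of 5 libraries and 233 in at least 4, and of the 92, 89 were lower in 5 of 5. Of all genes measured in a library, 86.7% were lower in fetal, 63.9% in WT, 59.5% in het, 53.7% in Bud and 74.9% in Cys. Standing lower in a library was thus common among all genes. The number called higher was 468 without the fetal library (4.67%), whose 2 wells give the smallest sum, and 177 without het (1.82%). The number called lower ranged from 21 without het (0.216%), 22 without WT and 27 without Cys to 158 without fetal (1.58%) and 191 without Bud. DESeq2 called 292 genes higher (2.99%) and 15 lower (0.153%). Scaling changed the lower side most: with plain library totals 283 genes were higher (2.9%) and 900 lower (9.21%), and with the spike-in RNAs as the scale 103 were higher (1.05%) and 9217 lower (94.3%), since the median gene then stood at -2.81 on the log2 scale. Statements below are relative to the TMM scale, edgeR's trimmed-mean scaling, in which the median gene is at -0.29.

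**Figure D3:**
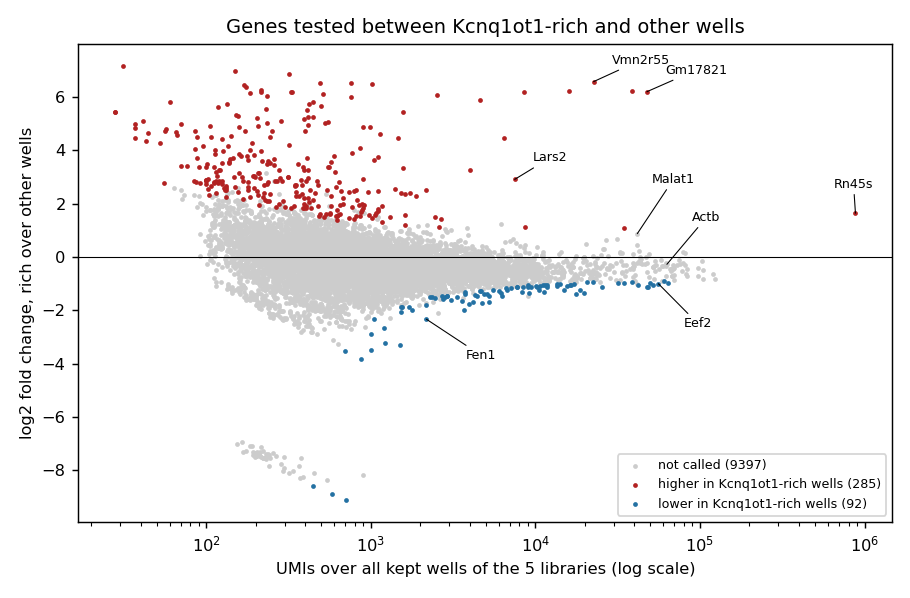
Each point is 1 of 9774 genes, with its UMIs over all kept wells on a log axis from left to right and its log2 fold change, Kcnq1ot1-rich over other wells, upward; red points are the 285 genes called higher, blue points the 92 called lower and grey points the rest. Red points reach past 6 on the log2 scale and include genes of every abundance, blue points lie mostly near -1 to -2, and the points at the bottom are genes without a UMI in Kcnq1ot1-rich wells, for which the drawn value is no bound.

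A group of 82 genes stood at least 16-fold higher, and these are called the accompanying genes here. They were cut from the same comparison, so what follows describes them. They took 7.87% of UMIs of the Kcnq1ot1-rich wells in fetal, 18.3% in WT, 23.2% in het, 16.6% in Bud and 18.0% in Cys, against 0.239%, 0.312%, 0.366%, 0.389% and 0.251% in the other wells. By library, 82 of 82 were higher in het, 82 in Bud, 81 in Cys and 80 in WT. In fetal 50 were, and the other 32 had no UMI in the 2 wells. Among the 15 genes with the largest changes were 4833422C13Rik, an antisense RNA (6.98 ± 0.44 on the log2 scale, SE, edgeR), and the protein-coding gene 9930111J21Rik1 (6.85 ± 0.39). Cyp2j5, a cytochrome P450 epoxygenase (6.40 ± 0.41), and Lipi, a phospholipase (6.19 ± 0.39), were others. These genes had 1.37 to 7.78 CPM in the other sums. A gene could enter the test on its Kcnq1ot1-rich level alone, so they are given without a p-value. Gm10785, an antisense RNA with 89.2 to 183 CPM in the other sums, was also among the 15 (6.19 ± 0.36, edgeR adjusted p = 9.82e-64). No single well carried the pattern: the well with most UMIs held 3.20% of all Gm17821 UMIs of the Kcnq1ot1-rich wells, and all 149 wells had at least 1 UMI of Gm17821, of A630089N07Rik, of Vmn2r55 and of Grk4. Several of the 82 belong to families of near-identical copies or are pseudogenes, for which the authors' counting could have shared or shifted reads between copies.

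The accompanying genes kept step with Kcnq1ot1 from well to well. Their UMIs per Kcnq1ot1 UMI had a median of 2.83 in fetal, 2.41 in WT, 2.28 in het, 2.25 in Bud and 2.32 in Cys among Kcnq1ot1-rich wells, with single wells from 1.09 to 3.49. In other wells with at least 10 Kcnq1ot1 UMIs, where both are rare, the medians were 2.25, 2.58, 2.45, 2.35 and 2.59. Spearman's rank correlation of the 2 shares over single wells was 0.971 in WT (22 wells), 0.963 in het (60), 0.960 in Bud (43) and 0.977 in Cys (22) among Kcnq1ot1-rich wells, and 0.699 to 0.913 among the other wells of the 5 libraries. Wells of 1 library share its preparation, and the 2 shares have a denominator in common. Vmn2r55 alone gave 0.440, 0.461, 0.339, 0.334 and 0.371 UMIs per Kcnq1ot1 UMI in Kcnq1ot1-rich sums of fetal, WT, het, Bud and Cys, against 0.225, 0.286, 0.267, 0.261 and 0.330 in the other sums.

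The 219 wells with fewer than 1000 UMIs, which entered neither the choice of the 82 genes nor any test above, showed the same pairing. In these, 99 wells had over 2% of UMIs from Kcnq1ot1. The median share of the 82 genes was 31.6% in fetal, 7.98% in WT, 16.4% in het, 10.7% in Bud and 8.86% in Cys in those wells, against 0.213%, 1.36%, 1.35%, 1.76% and 2.12% in the other wells under 1000 UMIs. These wells share the plates and the Kcnq1ot1 split from which the 82 genes were cut. The 82 also include the named markers Vmn2r55, Grk4 and Mid1, so the test below is not independent support. The difference averaged 13.8 ± 10.5 percentage points (SD, n = 5 libraries), higher in 5 of 5 (exact sign-flip p = 0.063, the smallest possible). Adjusted over the 4 sign-flip tests by Benjamini-Hochberg, this value and those of genes after thinning and reads per UMI, both without Kcnq1ot1, become 0.083. The 2 fetal wells and the 11 of Cys are few.

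**Figure D4:**
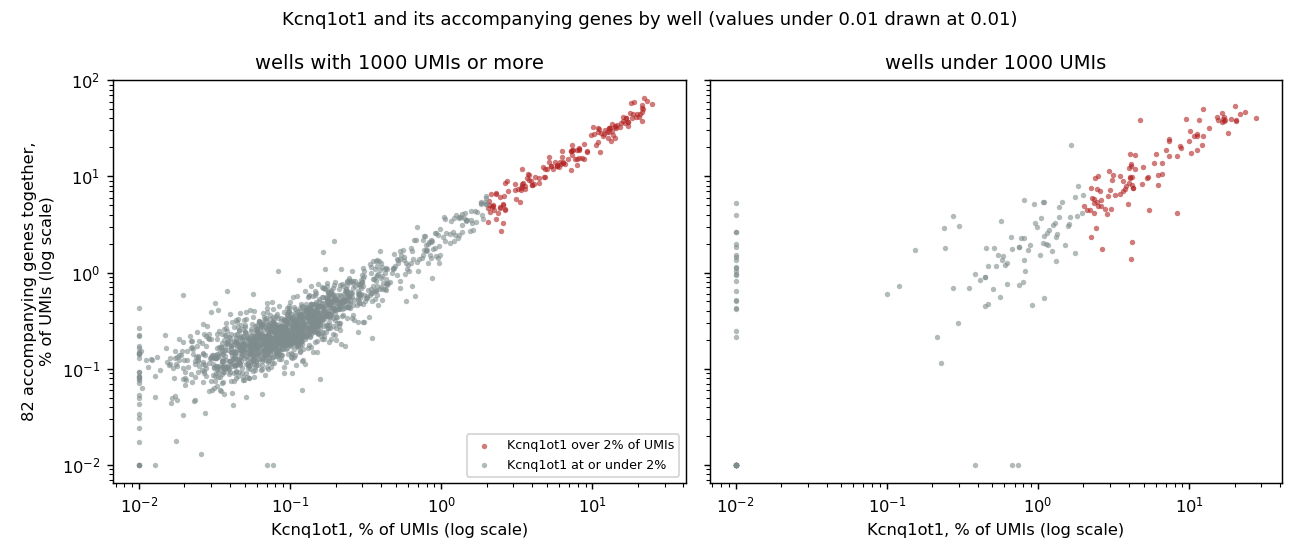
Each point is 1 well, with the percent of UMIs from Kcnq1ot1 from left to right and the summed percent from the 82 accompanying genes upward, both on log axes; the left panel has the kept wells, the right panel the 219 wells under 1000 UMIs, and red points have over 2% Kcnq1ot1. Points in both panels lie along 1 rising band with no step at 2%.

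By annotation fewer of the accompanying genes were protein-coding. Of the 76 found in GENCODE, 27 were not protein-coding (35.5%), against 126 of 8898 genes that were not called (1.42%). A gene could enter the test on its level in the Kcnq1ot1-rich sums alone. One such case is 4833422C13Rik, with 1.37 to 2.37 CPM in the other sums and 144 to 299 CPM in the Kcnq1ot1-rich sums. The 2 percentages are thus partly set by which genes could be tested, and how far was not tested. Runs of 12 or more adenines inside a transcript, the feature shown for Kcnq1ot1 above, were in 11 of 76 (14.5%), against 1356 of 8898 genes that were not called (15.2%), with the last 30 bases of each transcript left out. Over all genes called higher the share was 55 of 265 (20.8%), and over those called lower 3 of 92 (3.26%); these shares carry no test. A second feature was looked for after the genes were known, namely words of 14 bases that at least 5 of the 76 share on the same strand and under 1% of the other tested genes hold. These joined into 9 stretches. At least 1 such word was present in 22 of the 76 (28.9%) and in 129 of 9179 other tested genes (1.41%), and 124 of those 129 were not higher in Kcnq1ot1-rich wells, with a median log2 fold change of -0.24. On the opposite strand the words were in 9 of 76 (11.8%) and 194 of 9179 (2.11%). As the words were picked for being shared, these shares carry no test, and 54 of the 76 hold none of them. The longest stretch is printed as GENCODE M21 has it in 5 transcripts, with bases that match it in capitals. It was in Kcnq1ot1, in 6 of the 76 (7.89%) and in 26 of the 9179 other tested genes (0.283%). A stretch of 16 bases, also in Kcnq1ot1, was in 7 (9.21%) and 5 (0.0545%). Cxcr2, a chemokine receptor, Slfn9, a Schlafen-family gene, and Vmn1r58, a vomeronasal receptor gene, are shown for holding the longest stretch and were chosen after their values were seen. No repeat annotation was used, so the class of element was not determined.
Kcnq1ot1: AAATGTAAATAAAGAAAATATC
Cxcr2: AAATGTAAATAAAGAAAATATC
Slfn9: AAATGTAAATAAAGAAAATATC
Vmn1r58: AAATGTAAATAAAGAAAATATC
Grk4: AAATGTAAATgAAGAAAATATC

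Rn45s was the other large part of the Kcnq1ot1-rich wells in the small intestinal libraries, but its level varied between them. The name stands for the 45S ribosomal RNA precursor, and precursor was not told apart from mature ribosomal RNA here. Rn45s had 4840 CPM in fetal, 92337 in WT, 209604 in het, 45351 in Bud and 270310 in Cys in Kcnq1ot1-rich wells, against 27106, 31793, 27857, 27391 and 61300 CPM in the other wells. It was thus lower in fetal and higher in the other 4. The fitted change was 1.65 ± 0.37 on the log2 scale (SE, edgeR adjusted p = 0.000436). The call was lost without WT, het or Cys, with DESeq2 and against other wells of matched depth, and the sign turned on the spike-in scale. Matched depth means other wells between the lowest and highest UMIs of their library's Kcnq1ot1-rich wells, so medians could still differ. In Bud that range was 1122 to 16339 UMIs. Lars2, a mitochondrial leucyl-tRNA synthetase gene, had 186, 836, 3778, 1138 and 2349 CPM in Kcnq1ot1-rich wells of fetal, WT, het, Bud and Cys, against 136, 142, 297, 180 and 622 CPM (2.92 ± 0.32, adjusted p = 2.77e-17), and its call held without any single library. These 2 were the only tested members of a list of 10 ribosomal and polymerase III RNAs and the loci that collect their reads.

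Rn45s-rich and Kcnq1ot1-rich wells overlapped in part. Rn45s exceeded 20%, a limit set after the values were seen, of UMIs in 55 of the 149 Kcnq1ot1-rich wells (36.9%) and in 33 of 1552 other wells (2.13%), so that 62.5% of the 88 Rn45s-rich wells were also Kcnq1ot1-rich. The 33 Rn45s-rich wells outside the group had a median of 2286 UMIs, 0.530% Kcnq1ot1 and 486 genes after thinning. Among Kcnq1ot1-rich wells the rank correlation of the 2 shares was -0.12 in WT (22 wells), -0.31 in het (60), -0.08 in Bud (43) and -0.70 in Cys (22), and both shares are parts of 1 total.

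Besides Kcnq1ot1, some listed RNAs held in the nucleus were higher. Of 18 listed noncoding RNAs, 10 could be tested, 3 were called higher (30%, against 2.92% of all genes) and none lower, with a median log2 fold change of 0.92 against -0.29 over all genes. The summed share of the list was higher in 3 of 5 libraries. It was lower in fetal (0.344% against 0.407%) and WT (0.221% against 0.241%). Malat1, the abundant nuclear-speckle RNA, had 931 CPM in fetal, 1357 in WT, 2570 in het, 2081 in Bud and 6358 in Cys in Kcnq1ot1-rich wells, against 2411, 1329, 1398, 1385 and 1922 CPM in the others. The groups overlap, and its change of 0.88 ± 0.30 missed the threshold (edgeR adjusted p = 0.0772). Neat1, the scaffold of paraspeckles, had 1117, 178, 178, 190 and 392 CPM against 947, 242, 280, 261 and 668 CPM in the other wells (-0.12 ± 0.31, adjusted p = 0.898). The 3 called higher were Airn, the antisense RNA of the imprinted Igf2r domain (2.84 ± 0.51, adjusted p = 1.51e-06), Jpx, an activator of Xist (2.80 ± 0.70, adjusted p = 0.00313), and Tug1 (1.19 ± 0.36, adjusted p = 0.0306). Airn rested on 31 UMIs and Jpx on 10 in all Kcnq1ot1-rich wells, Jpx lost its call without Cys, and Tug1 without WT, het or Cys. On the spike-in scale Airn, Jpx and Tug1 all lost their calls. Of 22 tested genes known for transcripts that keep introns in the nucleus, 1 was called higher (4.55%), the splicing kinase gene Prpf4b (1.32 ± 0.39, adjusted p = 0.0239), and it lost its call without WT or het and with DESeq2. Their median log2 fold change was -0.02.

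No tested gene of the imprinted neighbourhood of Kcnq1ot1 was called. Of 15 listed genes of the domain and its neighbours, 11 were tested and 0 were called by edgeR or DESeq2, with 4 and 3 at an unadjusted p under 0.05. With 2.92% of all genes called higher and 0.941% lower, few calls among 11 genes would be seen in any list. The median log2 fold change was -0.56, against -0.29 over all genes. The summed share of the 15 genes was lower in 5 of 5 libraries. So were the shares of several other lists, such as proteasome and glycolysis genes, though not of every list. A share of UMIs falls wherever the leading RNAs fill a well. Kcnq1, the channel gene on the opposite strand, had 93.1 CPM in fetal, 123 in WT, 144 in het, 144 in Bud and 93.2 in Cys in Kcnq1ot1-rich wells, against 127, 272, 323, 278 and 243 CPM (-0.56 ± 0.35, adjusted p = 0.438). No source used here states whether the authors counted by strand, so reads of the 2 antisense genes cannot be told apart with certainty. Ascl2, a stem cell transcription factor that Kcnq1ot1 silences in cis in placenta, had 0, 54.8, 28.7, 60.4 and 0 CPM against 14.01, 159, 146, 155 and 27.4 CPM (-1.16 ± 0.45, adjusted p = 0.147).

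The 92 genes called lower included abundant genes of translation, metabolism and the cytoskeleton, with changes near 2-fold. A list headed translation factors also holds other genes, Npm1 among them. Of its 21 tested genes 5 were lower (23.8%, against 0.941% of all genes), Npm1 included, and none higher, with a median log2 fold change of -0.83. Eef2, the elongation factor that moves the ribosome along, had 1210 CPM in fetal, 905 in WT, 805 in het, 1087 in Bud and 951 in Cys in Kcnq1ot1-rich wells, against 1960, 2528, 2705, 2773 and 2327 CPM (-1.0 ± 0.29, edgeR adjusted p = 0.0166). Its groups did not overlap. Npm1, a nucleolar chaperone of ribosome assembly, had 2234, 1426, 546, 1816 and 653 CPM against 2831, 3118, 2772, 2883 and 2351 CPM (-0.97 ± 0.29, adjusted p = 0.0247). Both calls were lost without WT, het or Cys, with DESeq2 and against other wells of matched depth. Eef1a1, the most abundant elongation factor, had a change of -0.83 ± 0.28 that missed the threshold (adjusted p = 0.0765). Of 75 tested cytosolic ribosomal protein genes 0 were called by edgeR, with 10 at an unadjusted p under 0.05, and 1 by DESeq2, and their median of -0.27 was close to that of all genes.

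Some genes of energy metabolism, the endoplasmic reticulum and the cytoskeleton were also lower. Of 13 tested glycolysis genes 3 were lower (23.1%), among them Pgk1, which makes the first ATP of the pathway (-1.13 ± 0.29, edgeR adjusted p = 0.00478), whose call was lost without het, with DESeq2 and at matched depth, while Gapdh at -0.63 ± 0.30 was not called (adjusted p = 0.275). Of 26 tested oxidative phosphorylation genes 2 were lower (7.69%), including the ATP synthase subunit gene Atp5b (-0.98 ± 0.29, adjusted p = 0.0274). Of 24 genes of proteins made on or in the endoplasmic reticulum 3 were lower (12.5%), including the chaperone gene Hspa5 (-1.03 ± 0.32, adjusted p = 0.0368) and the sodium pump subunit gene Atp1b1 (-1.01 ± 0.32, adjusted p = 0.0379). Of 20 cytoskeletal genes 1 was lower (5%), the tubulin gene Tuba1b (-0.95 ± 0.30, adjusted p = 0.0464), while Actb had a change of -0.27 ± 0.28 (adjusted p = 0.692). The calls of Atp5b, Hspa5, Atp1b1 and Tuba1b were lost without WT, het or Cys and at matched depth, and with DESeq2 those of Hspa5, Atp1b1 and Tuba1b were lost too. None of 15 tested proteasome genes was called by edgeR or DESeq2, with 6 and 2 at an unadjusted p under 0.05.

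The steepest losses among called genes were of genes with few molecules. Pop4, a subunit of RNase P, had no UMI in any Kcnq1ot1-rich well and 704 in the other wells, which makes it at least 5.38-fold lower at a limit of 3 UMIs over all Kcnq1ot1-rich sums (edgeR adjusted p = 0.00559, lost without Bud and with DESeq2). Fam149b and Med4 also had none, against 578 and 445 UMIs, at least 4.42-fold and 3.40-fold lower, with calls that were lost without WT, het or Bud and with DESeq2 and, for Med4, without Cys too. Pygb, the brain form of glycogen phosphorylase, had 2 UMIs in Kcnq1ot1-rich wells and fell in 5 of 5 libraries (-3.29 ± 0.80, adjusted p = 0.00202), a call that held without each library and was lost with DESeq2. Sae1, a subunit of the SUMO-activating enzyme, had 0, 54.8, 11.5, 32.5 and 37.3 CPM in fetal, WT, het, Bud and Cys, against 141, 185, 132, 178 and 175 CPM (-1.99 ± 0.45, adjusted p = 0.000602); its call held without each library and with DESeq2, and not against other wells of matched depth.

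Genes of DNA replication were mixed. Of 16 tested S-phase genes 3 were lower (18.8%, against 0.941% of all genes) and 1 was higher (6.25%, against 2.92%). Fen1, the flap endonuclease, had 9 UMIs in all Kcnq1ot1-rich wells, at 0, 0, 5.75, 37.2 and 0 CPM against 40.8, 144, 94.99, 123 and 94.8 CPM in fetal, WT, het, Bud and Cys (-2.33 ± 0.54, edgeR adjusted p = 0.000846), which held without each library and not against other wells of matched depth. The helicase subunit gene Mcm6 was lower by the same test (-1.69 ± 0.40, adjusted p = 0.00109; lost without het and at matched depth) and Pcna too (-1.02 ± 0.32, adjusted p = 0.0368; lost without WT, het, Bud or Cys, with DESeq2 and at matched depth; named after its value was seen). Tyms, which makes thymidylate, went the other way, with 93.1, 54.8, 138, 102 and 186 CPM against 18.4, 43.9, 37.9, 40.9 and 33.1 CPM (2.15 ± 0.37, adjusted p = 6.84e-07). None of 16 tested genes of G2 and mitosis was called by edgeR or DESeq2, with 2 and 0 at an unadjusted p under 0.05.

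Single stress genes were called in both directions. Of 16 tested genes that dissociation induces 2 were higher (12.5%, against 2.92% of all genes), the immediate early gene Jun (1.59 ± 0.36, edgeR adjusted p = 0.000544; lost without het) and Atf3 (2.37 ± 0.60, adjusted p = 0.00377; 17 UMIs, lost without het or Bud; named after its value was seen), and 1 was lower (6.25%, against 0.941%), the heat-shock cognate gene Hspa8 (-1.04 ± 0.29, adjusted p = 0.0115; lost without WT, het or Cys and at matched depth). Of 13 p53 and apoptosis genes 1 was higher and 1 lower (7.69% each). Tnfrsf10b, a TRAIL death receptor gene, was higher (1.91 ± 0.38, adjusted p = 2.91e-05; lost without het), and Bax, which opens the mitochondrial outer membrane, was lower (-1.57 ± 0.51, adjusted p = 0.0497; 10 UMIs, lost without WT, het, Bud or Cys and with DESeq2). None of 11 integrated stress response genes was called by edgeR or DESeq2, with 2 and 1 at an unadjusted p under 0.05. The tables had no rows for genes of the mitochondrial genome, so their share, often used to mark leaky cells, was not analysed here.

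Kcnq1ot1-rich wells kept the mark of the organoid they came from. Over 1063 genes that differed at least 4-fold between the other wells of the 5 libraries, leaving out Kcnq1ot1 and all called genes, the Kcnq1ot1-rich sum of each library correlated most with the other wells of its own library. Pearson's r over genes was 0.712 for fetal, 0.865 for WT, 0.856 for het, 0.927 for Bud and 0.774 for Cys. The next best match was Cys for fetal (0.331), het for WT (0.829), WT for het (0.793), WT for Bud (0.829) and Bud for Cys (0.358). Genes are not replicates and these values are a description.

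**Figure D5:**
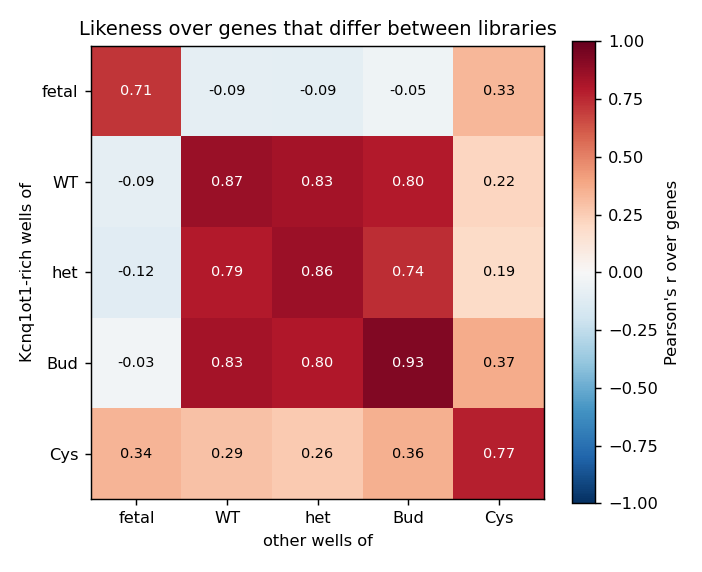
Each cell is Pearson's r of log2(CPM + 10) over 1063 genes between the Kcnq1ot1-rich wells of 1 library (rows) and the other wells of 1 library (columns), from blue at -1 to red at 1. The highest value of each row lies on the diagonal, from 0.71 for fetal to 0.93 for Bud, and WT, het and Bud also resemble each other.

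Markers show what was left of cell identity. Tff1, a gastric-type trefoil peptide, was at 1995 CPM in the Kcnq1ot1-rich wells of Cys and had no UMI in those of the other 4 libraries, against 3437 CPM in the other wells of Cys and at most 2.90 CPM in those of fetal, WT, het and Bud. All 22 Kcnq1ot1-rich wells of Cys had a Tff1 UMI, and 1 well held 44.9% of the total. Clu, a gene of fetal and regenerating epithelium, was at 4375 CPM in fetal, 13.7 in WT, 0 in het, 9.29 in Bud and 951 in Cys, against 4157, 10.3, 11.6, 11.8 and 3425 CPM. Fabp1, a fatty acid carrier of enterocytes, was at 548 CPM in WT and 420 in het, with no UMI in the Kcnq1ot1-rich wells of the other 3 libraries, against 616 CPM in WT and 787 in het. The stem cell receptor gene Lgr5 was at 0, 206, 46.0, 200 and 37.3 CPM against 102, 280, 304, 316 and 12.8 CPM (-0.53 ± 0.38, edgeR adjusted p = 0.530).

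No tested intestinal identity or stem cell gene was called. Of 12 tested intestinal identity genes and 13 tested stem cell genes 0 were called by edgeR, with 3 and 7 at an unadjusted p under 0.05; DESeq2 called 0 and 1. The medians were -0.38 and -0.82 against -0.29 over all genes. Among wells thinned to 1000 UMIs, an identity-gene UMI was seen in 0 of 2 Kcnq1ot1-rich wells in fetal, 14 of 22 in WT, 36 of 60 in het, 32 of 43 in Bud and 8 of 22 in Cys, or 63.6% in WT, 60.0% in het, 74.4% in Bud and 36.4% in Cys. The other wells had 51.8% in fetal, 91.1% in WT, 90.7% in het, 91.3% in Bud and 75.7% in Cys. These shares still count the leading RNAs. With Kcnq1ot1, Rn45s and the accompanying genes removed and wells thinned to 300 UMIs, the shares were 1 of 2 wells in fetal, 57.1% in WT, 48.3% in het, 32.6% in Bud and 36.4% in Cys for Kcnq1ot1-rich wells, against 16.5%, 53.9%, 61.5%, 57.1% and 34.4% in the others, lower in het and Bud and not in the other 3. Of 11 immune markers, which these organoids should lack, the 8 in the tables gave a UMI in 0 of 2 thinned Kcnq1ot1-rich wells in fetal, 2 of 22 in WT (9.09%), 1 of 60 in het (1.67%), 1 of 43 in Bud (2.33%) and 2 of 22 in Cys (9.09%), against 12 of 369 (3.25%), 1 of 280 (0.357%), 1 of 291 (0.344%), 1 of 275 (0.364%) and 3 of 337 (0.890%) in the others. Their summed share of UMIs ran from 0% to 0.00559% over the Kcnq1ot1-rich wells of the 5 libraries and from 0.000355% to 0.00273% over the others, higher in 4 of 5, and Ptprc and Csf1r, which define leukocytes and macrophages, had no UMI in Kcnq1ot1-rich wells. That of 9 mesenchymal markers ran from 0.00137% to 0.00931% and from 0.000126% to 0.000325%, higher in 5 of 5. Immune, mesenchymal, endothelial and enteroendocrine lists had no gene with enough UMIs to test, and their part in the results was not tested. The accompanying genes include some known from leukocytes, such as Itga4 (5.26 ± 0.36, edgeR adjusted p = 3.92e-45) and Cd84 (5.24 ± 0.37, adjusted p = 9.13e-44), both named after their values were seen.

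A few differentiation genes were higher, each in part of the libraries. Of 11 tested enterocyte genes 2 were higher (18.2%, against 2.92% of all genes), Apoa1 (2.47 ± 0.42, edgeR adjusted p = 4.65e-07) and Apoc3 (2.42 ± 0.48, adjusted p = 2.75e-05), both lipoprotein components. Apoa1 had 0, 562, 581, 0 and 18.6 CPM in the Kcnq1ot1-rich wells of fetal, WT, het, Bud and Cys, against 0, 83.5, 123, 25.9 and 0.609 CPM, and lost its call without WT and with DESeq2. A single well held 45.2% of the Apoc3 UMIs and another 45.8% of those of Ang4, a Paneth cell antimicrobial gene (2.24 ± 0.48, adjusted p = 0.000191), whose call was lost with DESeq2 and whose sign turned when wells under 2000 UMIs were left out. The goblet cell gene Agr2 was lower (-1.46 ± 0.42, adjusted p = 0.0162; lost without WT, het or Cys and with DESeq2). Of 17 tested fetal and regenerative genes 3 were higher (17.6%): the EGF-family ligand gene Areg (2.41 ± 0.38, adjusted p = 1.84e-08), with 186, 68.6, 282, 135 and 37.3 CPM against 65.1, 16.2, 27.2, 20.3 and 162 CPM, the tight junction gene Cldn4 (1.51 ± 0.36, adjusted p = 0.00162; lost without het or Bud, with DESeq2 and at matched depth) and the YAP target gene Cyr61 (1.44 ± 0.39, adjusted p = 0.00848; lost without WT or het and with DESeq2). Areg kept its call without each library, though it was lower in Cys. On the spike-in scale none of these differentiation genes was called higher.

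The calls were also looked at one library at a time. Genes called higher from 4 libraries were higher in the library left out for 206 of 242 measured there in WT (85.1%), 174 of 177 in het (98.3%), 240 of 274 in Bud (87.6%) and 208 of 264 in Cys (78.8%), against 36.1%, 40.5%, 46.3% and 25.1% of all genes measured there. In fetal 89 of 448 were (19.9%), against 13.3% of all genes, and 350 of the 468 genes called without fetal had no UMI in its 2 wells. At that depth an absence could not be told from a low level.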

How the data were processed

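Single cells of 5 organoid plates were profiled by SORT-seq, 1 library per plate. Per the labels' protocols, RNA was primed with barcoded primers and sequenced by CEL-Seq2; tools listed by the submitters' processing notes are Seurat 4.1.0, featureCounts 1.5.2 and STAR 2.6.1, with build GRCm38, and no source used here names the annotation. The deposited tables of each library hold whole-number UMI counts per gene and well, whole-number read counts, and estimated counts of transcripts, which equal the UMI counts corrected for chance repeats among 4096 tags (largest deviation 3.64e-12). Here spike-in rows were set aside and wells with at least 1000 UMIs kept; 13, 82, 33, 66 and 25 wells of fetal, WT, het, Bud and Cys fell below. Wells were sorted singly and no doublet caller was run. Counts were summed per library over Kcnq1ot1-rich and other wells, giving 10 sums, and tested with edgeR 4.0.16 (TMM, glmQLFit, glmQLFTest, library as a block, Benjamini-Hochberg, R 4.3.3). The spread was estimated as 1 trend shared by all genes, so a gene's own scatter over libraries did not enter its p. Separate animals or cultures are not stated, and edgeR p-values rest on that shared spread, not on each gene's own spread between these plates. The fit was tested on simulated data: of 50 genes changed by 2 on the log2 scale 42 were recovered upward and 23 downward, and of 50 changed by 1, 2 and 5. DESeq2 1.42.0, other thresholds, minimum depths, scalings, thinning and depth-matched wells were alternatives. Gene names in the text are the 15 largest and 15 smallest changes called in at least 4 libraries with 50 UMIs, up to 4 genes per list at 20 CPM, and set names, with exceptions stated. The wells, the lists and the names were chosen with earlier results of these data known. Transcript sequences are from GENCODE M21, in which 94.7% of tested genes were found.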

Additional observations from a re-analysis of the deposited data

Results flagged for a closer look

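Wells under 1000 UMIs were left out of every comparison, and 99 of these 219 had over 2% of UMIs from Kcnq1ot1, a signal in wells outside the main measurement. By library they were 2 of 13 in fetal, 27 of 82 in WT, 19 of 33 in het, 40 of 66 in Bud and 11 of 25 in Cys, against 149 of 1701 kept wells. Their median depth was 437 UMIs, and that of the other 120 wells under the minimum 360 UMIs. The 82 accompanying genes together took 19.7% of their summed UMIs, against 1.85% in the other wells under the minimum.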

How the results depend on the processing

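The 82 accompanying genes were all called higher with DESeq2 and with both other scalings, as were the 42 that could be tested against other wells of matched depth. The 82 were cut from the main fit, and these settings reuse its Kcnq1ot1-rich sums, so the repeated calls are no separate support. Calls among them were lost with no library block (70 of 82 called), no filter (81 of 82), without het (78 of 81 tested) and without Cys (79 of 81). With Kcnq1ot1, Rn45s and these genes removed, the difference in genes per thinned well turned to 1.5. Against the 285 genes called higher and 92 called lower, depth-matched wells gave 97 and 7 of 3264 tested (84 of the 97 shared with the 285), wells thinned to 1000 UMIs 41 and 8 of 2483 tested, no filter 801 and 359, no library block 167 and 14, a 5% Kcnq1ot1 threshold 455 and 468, and spike-in scaling, chosen after seeing the data, 103 and 9217. DESeq2 gave 15 lower and library totals, also chosen afterwards, 900 lower. Leaving out 1 library gave 177 to 468 higher and 21 to 191 lower. Kcnq1ot1-rich wells were 8.76% of kept wells, 11.3% at a 1% threshold, 5.53% at 5%, 10.7% with a minimum of 500 UMIs and 6.21% with 2000. On the spike-in scale, where the median gene was at -2.81, the log2 fold change turned negative for Rn45s (-0.76), Tug1 (-1.24), Malat1 (-1.41), Prpf4b (-1.29), Jun (-0.93), Atf3 (-0.12), Tnfrsf10b (-0.54), Tyms (-0.42), Apoa1 (-0.47), Apoc3 (-0.40), Ang4 (-0.61), Sox4 (-1.40), Cldn4 (-0.92) and Cyr61 (-0.85). Neat1 turned to 0.22 with DESeq2, 0.14 at matched depth and 0.016 after thinning, Actb to 0.076 and 0.026 in the first 2 of these, and Ang4 to -2.09 with a minimum of 2000 UMIs. The cause was not tested. Of 33 named genes called higher, 20 kept the call without each library, and of 23 called lower 3 did. DESeq2 lost 7 and 17 of these calls, and matched depth 3 and 16. Fewer wells entered at matched depth. Of the 92 genes called lower, 76 were tested there and all 76 kept their sign. Of the 7 genes called lower at matched depth, 2 were among the 92. The same Kcnq1ot1-rich sums entered both comparisons, so a kept sign is no separate support. Over 69 named genes and all settings, 934 of 1201 values kept their direction and side of the threshold, and of 922 list counts 676 stayed within 1.5 times. Kcnq1ot1-rich and other wells were compared within each library, which was the block of the fit and the pair of the sign-flip tests. Depth limits fetal most, with 2 Kcnq1ot1-rich wells.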
